A study of Mus musculus with 4 samples.

Results

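The regenerating islet-derived (Reg) genes encode small secreted proteins of the C-type lectin fold. The 7 members Reg1, Reg2, Reg3a, Reg3b, Reg3d, Reg3g and Reg4 were taken by symbol from a deposited gene table of 39170 rows, and all 7 had a row. The RNA came from sorted pancreatic islet cells of MIP-GFP males, C57BL/6 mice aged 6 to 8 weeks that make green fluorescent protein from the mouse insulin promoter. Glut2, a glucose transporter encoded by Slc2a2, was used to sort insulin-positive cells into a low (Glut2L) and a high (Glut2H) gate, from mice injected with 200 mg/kg of streptozotocin (STZ) and from mice injected with vehicle. Beta cells take up STZ, an alkylating toxin, by way of Glut2, and the injected mice were diabetic 4 days later. The 4 groups are Glut2L STZ, Glut2L control, Glut2H STZ and Glut2H control, and each holds 1 library. There were 3 mice per group, and the sources used here do not say whether their cells were pooled. Without replicates there is no measure of the spread within a group, so nothing was tested and each comparison describes these libraries.

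Reg1 is the pancreatic stone protein, or lithostathine, which acinar cells of the exocrine pancreas secrete. Reg3 proteins include the pancreatitis-associated protein, and those of the gut kill bacteria. Reg genes are induced in injured pancreas and gut by cytokines such as IL-6 and IL-22, which signal through STAT3. A receptor for Reg protein, Extl3, was described in rat islets.

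Slc2a2 RNA was higher in the libraries labelled Glut2L than in those labelled Glut2H. Slc2a2 was at 33.7 and 41.0 FPKM (fragments per kilobase, a level corrected for transcript length and library size) in the STZ and control libraries labelled Glut2L. In the STZ and control libraries labelled Glut2H it was at 10.8 and 8.74 FPKM. Both gates held insulin RNA: Ins2 was at 175841 and 294540.0 FPKM in the STZ and control libraries labelled Glut2L, and at 52596 and 57345 FPKM in those labelled Glut2H. Each direction between gates below is therefore a direction between libraries so labelled. RNA of acinar cells was present in all 4: the 30 acinar marker genes in the table summed to 546 and 4339 FPKM in the STZ and control libraries labelled Glut2L, and to 6008 and 5526 FPKM in those labelled Glut2H. The number of reads behind a value is unknown. In bulk RNA, fewer cells of a type and less RNA per cell cannot be told apart.

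Of the Reg genes, 6 lie together on mouse chromosome 6 and Reg4 lies apart on chromosome 3 (GRCm38). The cluster runs over 98.0 kb, from base 78370885 to base 78468872, in the order Reg3b, Reg3d, Reg3a, Reg2, Reg1 and Reg3g. Reg3d and Reg3g are on the minus strand and the other 4 on the plus strand. Reg3b, Reg3d and Reg3a are 2.4 and 1.8 kb apart, Reg3a and Reg2 21.3 kb, Reg2 and Reg1 17.9 kb, and Reg1 and Reg3g 37.6 kb. Every member has 6 exons in its main GENCODE M21 transcript, 5 of them coding, and coding lengths run from 471 bases in Reg4 to 525 bases in Reg3a, Reg3b and Reg3d. Reg1 and Reg2 are the pair with the highest identity of coding sequence, at 78.8%, and Reg3b and Reg3g follow at 76.0%. Reg4 was at 49.8% to 53.9% with the other members. No 50-base word was shared exactly between transcripts of any 2 members, and 0 words of the 7 main transcripts were found in transcripts of another gene. Over all annotated transcripts, 3.65% of the words of Reg1 and 11.3% of those of Reg2 also occur in other genes, so some reads of their longer isoforms could be shared.

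The 250 bases before the start of the 3 genes that the results turn on most are shown, since Reg1 and Reg2 carry a similar composite of boxes at a similar place while their levels differ, and Reg3b lacks it. They come from RefSeq (GRCm38.p6), plus strand, at chr6:78425733-78425982 for Reg1, chr6:78404905-78405154 for Reg2 and chr6:78370635-78370884 for Reg3b. Capitals mark a TATA box (TATAAA), a STAT-type site (TTCNNNGAA), and an E box (CANNTG) followed after 6 bases of any kind by an RBPJ-type box (TTCCCA), the kind of pair bound by the acinar factor PTF1.

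Reg1: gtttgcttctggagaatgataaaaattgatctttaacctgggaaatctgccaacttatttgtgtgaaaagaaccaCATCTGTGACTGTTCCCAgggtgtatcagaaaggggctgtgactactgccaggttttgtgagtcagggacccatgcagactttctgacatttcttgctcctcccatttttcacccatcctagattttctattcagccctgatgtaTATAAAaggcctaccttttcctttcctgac
Reg2: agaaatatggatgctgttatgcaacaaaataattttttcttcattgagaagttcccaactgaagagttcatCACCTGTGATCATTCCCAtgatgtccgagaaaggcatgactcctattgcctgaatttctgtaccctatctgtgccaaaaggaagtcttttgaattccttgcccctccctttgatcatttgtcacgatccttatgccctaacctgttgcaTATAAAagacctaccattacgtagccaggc
Reg3b: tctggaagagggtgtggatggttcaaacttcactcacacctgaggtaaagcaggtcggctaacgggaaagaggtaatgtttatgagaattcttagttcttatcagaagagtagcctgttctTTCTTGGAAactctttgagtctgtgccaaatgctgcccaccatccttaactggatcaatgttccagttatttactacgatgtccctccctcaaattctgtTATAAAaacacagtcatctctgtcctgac

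All 7 members matched the RefSeq promoter table, and both strands were searched. The TATA box was in the windows of 4 of 7 members (Reg1, Reg2, Reg3b and Reg3g) and in 12.4% of 32851 windows of all genes. It began 30 bases before the start in Reg1 and Reg2 and 29 bases before it in Reg3b. The STAT-type letters were in Reg3b and Reg3d, against 7.02% of all windows. The E box with the RBPJ-type box was in Reg1, as CATCTGTGACTGTTCCCA, and in Reg2, as CACCTGTGATCATTCCCA, beginning 175 and 179 bases before the start, and in 29 of all 32851 windows (0.0883%). Alone, TTCCCA was in 5 of 7 members and 21.6% of all windows, and the E box CACCTG, which in Reg2 is the one of the pair, in 5 of 7 and 17.2%. The spacing of the pair was written down after the Reg sequences had been read, and it was in the windows of 0 of 25 acinar marker genes. A match of letters is a description of the window and not a binding site.

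**Figure D1:**
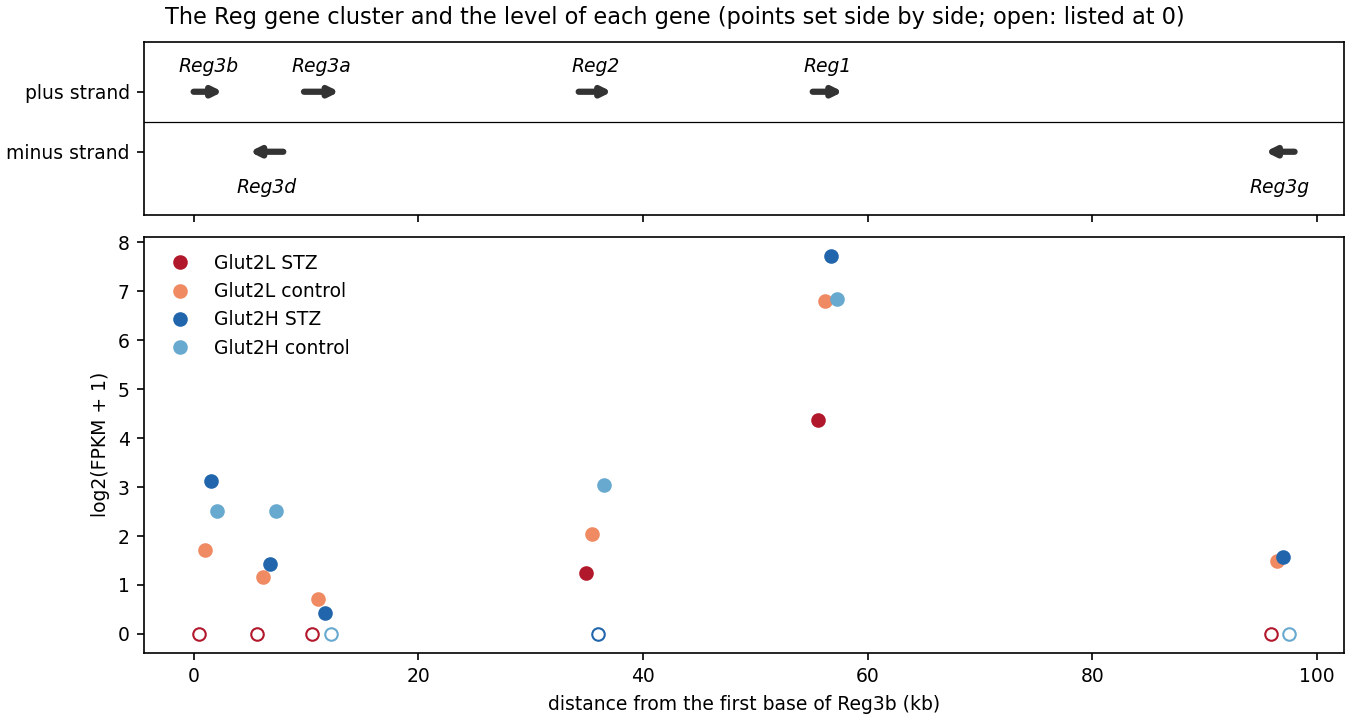
Upper panel: position of the 6 clustered Reg genes in kb from the first base of Reg3b, as arrows along their strand. Lower panel: log2(FPKM + 1) of each gene in the 4 libraries (1 library per group, open circles listed at 0). Reg1, between Reg2 and Reg3g, was above the other genes in every library.

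Reg1 (ENSMUSG00000059654, chromosome 6, 78425983 to 78428666) was the abundant member. It was at 19.7 FPKM in the library labelled Glut2L from STZ mice and at 110.4 FPKM in the one from control mice, with deposited intervals of 5.70 to 33.5 and 42.4 to 178 (their level is not stated). In the libraries labelled Glut2H it was at 211 FPKM after STZ and 114 FPKM in control mice, with intervals of 91.7 to 329 and 47.0 to 180.4. The Glut2L STZ library was low, and the intervals of the other 3 libraries overlapped each other. Reg1 made up 93.6% and 91.9% of the summed Reg FPKM in the STZ and control libraries labelled Glut2L, and 94.7% and 87.3% in those labelled Glut2H. Among all rows of a library Reg1 ranked 3921st and 748th in the STZ and control libraries labelled Glut2L, and 338th and 620th in those labelled Glut2H, where between 13714 and 14425 rows reached 1 FPKM.

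Reg2 (ENSMUSG00000023140, chromosome 6, 78405155 to 78408097), which mouse islets can make after injury, was low throughout. It was at 1.35 FPKM (interval 0 to 2.57) and 3.12 FPKM (0.198 to 5.94) in the STZ and control libraries labelled Glut2L. It was listed at 0 in the Glut2H STZ library and was at 7.28 FPKM (1.19 to 13.3) in the Glut2H control library. The library where Reg2 was listed at 0 was the one where Reg1 was highest. Relative to Reg1, Reg2 was at 6.88% and 2.83% in the STZ and control libraries labelled Glut2L, and at 6.38% in the Glut2H control library.

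Reg3b (ENSMUSG00000071356, chromosome 6, 78370885 to 78373466), the pancreatitis-associated protein of the mouse, was listed at 0 in the Glut2L STZ library and was at 2.30 FPKM (interval 0 to 4.51) in the Glut2L control library. In the libraries labelled Glut2H it was at 7.73 FPKM (1.62 to 13.7) after STZ and 4.67 FPKM (0.541 to 8.66) in control mice. Its libraries stood in the same order as those of Reg1, in which the 2 control libraries were nearly level. Reg3d (ENSMUSG00000068341, chromosome 6, 78375874 to 78378865), a relative of the hamster protein INGAP, was listed at 0 and at 1.23 FPKM in the STZ and control libraries labelled Glut2L, and at 1.67 and 4.67 FPKM in those labelled Glut2H. Each of its intervals above 0 began at 0, with upper bounds of 3.27, 3.92 and 9.38 FPKM, so the 3 libraries overlap.

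Reg3g (ENSMUSG00000030017, chromosome 6, 78466269 to 78468872), an antibacterial lectin of the gut, was listed at 0 in the Glut2L STZ and Glut2H control libraries. It was at 1.80 FPKM (interval 0 to 4.72) in the Glut2L control and 1.97 FPKM (0 to 4.65) in the Glut2H STZ library. Reg3a (ENSMUSG00000079516, chromosome 6, 78380709 to 78383839), a further secreted lectin of the Reg3 group, was at 0.630 FPKM (interval 0 to 1.64) in the Glut2L control and 0.342 FPKM (0 to 1.31) in the Glut2H STZ library and was listed at 0 in the other 2. Reg4 (ENSMUSG00000027876, chromosome 3, 98222156 to 98236748), which is made by secretory cells of the gut, was at 0.673 FPKM (interval 0 to 1.34) in the Glut2L control library and listed at 0 in the other 3. Reg3a and Reg4 reached 1 FPKM in no library, and the intervals of Reg3g, Reg3a and Reg4 began at 0 wherever they had a value. In the Glut2L STZ library 2 of 7 members were above 0, in the Glut2L control library 7, in the Glut2H STZ library 5 and in the Glut2H control library 4. Without Reg1 the family summed to 1.35 and 9.76 FPKM in the STZ and control libraries labelled Glut2L, and to 11.7 and 16.6 FPKM in those labelled Glut2H.

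**Figure D2:**
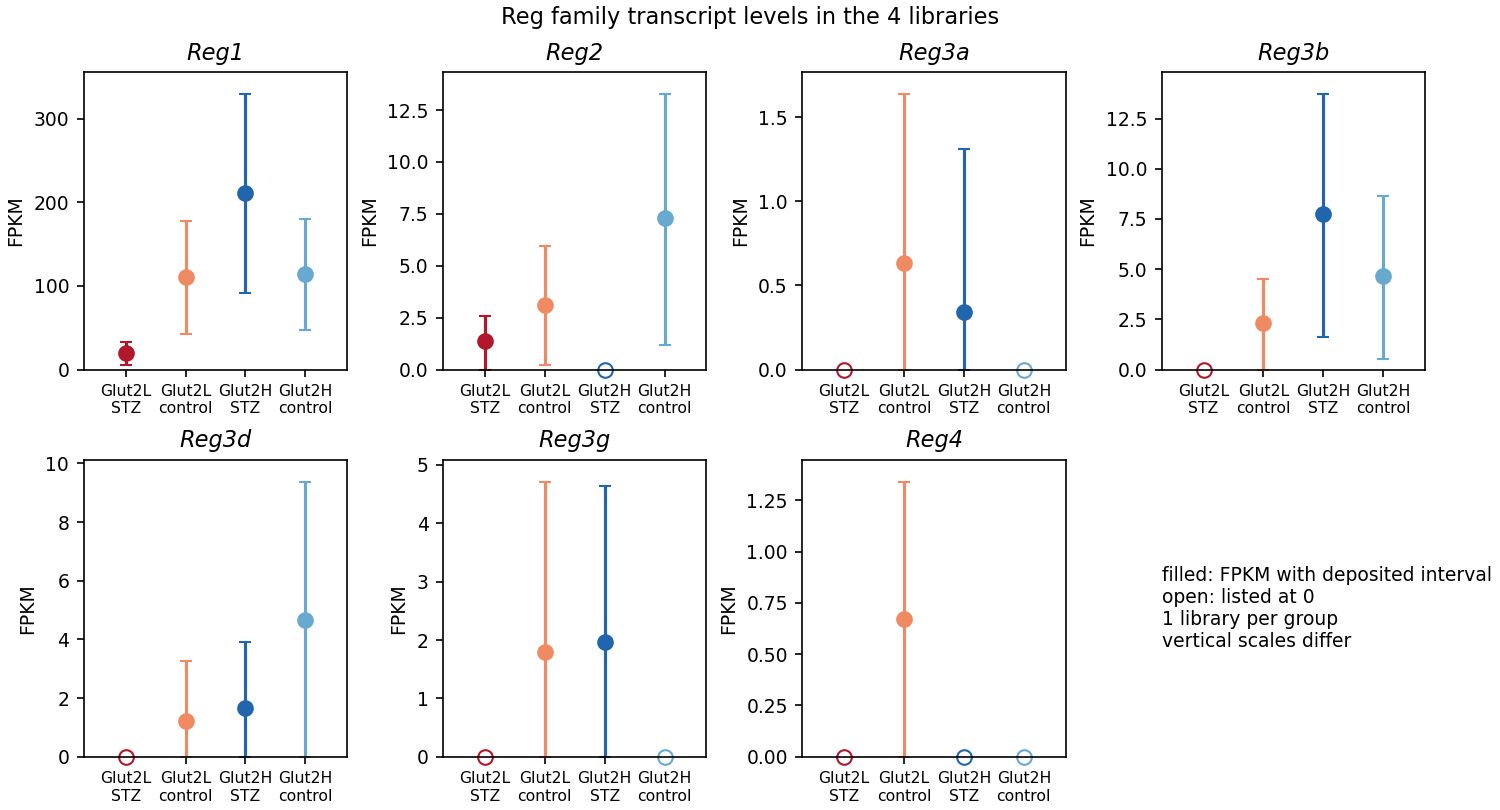
FPKM of each Reg gene in the 4 libraries (1 library per group), with the interval deposited by the authors as bars and open circles for values listed at 0. Vertical scales differ between panels. Reg1 was at 19.7 FPKM in the Glut2L STZ library and between 110.4 and 211 FPKM in the other 3, while every other member was at 7.73 FPKM or less.

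The comparison of STZ with control mice within a gate asks what the toxin did to the cells of that gate. In the library labelled Glut2L, Reg1 was 5.62-fold lower after STZ, a difference of -2.43 in log2(FPKM + 1), and the deposited intervals of the 2 libraries did not overlap. Of the 5 members that reached 1 FPKM in either library, 4 were at least 2-fold lower (Reg1, Reg3b, Reg3d and Reg3g) and 0 were higher, where 11.1% of 15602 genes were at least 2-fold lower and 10.2% higher. Reg3b, Reg3d and Reg3g were listed at 0 after STZ and passed the 1 FPKM filter through the control library alone, so their place in this count was set by the filter and nothing is read from it beyond Reg1. Reg2 was at -0.81 on that scale with overlapping intervals. With intervals that do not overlap as a further condition 1 member was lower (Reg1) and 0 higher, where 0.41% of all genes were lower and 0.32% higher by that rule.

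In the library labelled Glut2H, Reg1 was 1.85-fold higher after STZ (0.88 on the log2 scale), with overlapping intervals. Reg3b was 1.66-fold higher, likewise with overlapping intervals. Of 5 members, 1 was at least 2-fold higher (Reg3g, listed at 0 in control mice), beside 9.62% of 15558 genes, and 2 were at least 2-fold lower (Reg2, listed at 0 after STZ, and Reg3d), beside 13.8% of genes. Reg3g and Reg2, each at 0 in 1 library, were likewise set by the filter. With intervals that do not overlap, 1 was lower (Reg2, whose value of 0 has an interval of no width) and 0 higher, beside 0.656% and 0.379% of genes. The STZ effect of Reg1 was lower by 3.31 on the log2 scale in the library labelled Glut2L than in the one labelled Glut2H, that of Reg3b by 2.35 and that of Reg3g by 3.06. Relative to the acinar sum, Reg1 after STZ was at 0.50 in the libraries labelled Glut2L, and the difference between gates was -0.26. For Reg2 the effect was higher by 2.24. Reg3b was listed at 0 in the Glut2L STZ library, Reg2 in the Glut2H STZ library, and Reg3g in the Glut2L STZ and Glut2H control libraries. The pseudocount therefore sets the size of these differences. With a pseudocount of 0.1 and of 5 they were -5.30 and -0.94 for Reg3b, -8.62 and -0.92 for Reg3g, and 5.06 and 0.94 for Reg2. For Reg3d, listed at 0 in the Glut2L STZ library, the difference was -0.07 with a pseudocount of 1 and -2.31 with 0.1, so the pseudocount sets it. These differences between gates rest on 1 library per group and were not tested.

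The gates are compared because the submitters hold that pancreatic multipotent progenitors are enriched among the Glut2-low cells. After STZ, Reg1 was 10.7-fold lower in the library labelled Glut2L than in the one labelled Glut2H, a log2 difference of -3.36 with intervals that did not overlap. With libraries rescaled to an equal sum that difference was -2.25. In control mice Reg1 was nearly level, at -0.05, and at 0.77 with that rescaling. After STZ 4 of 5 members stood 2-fold or more below the library labelled Glut2H in the one labelled Glut2L (Reg1, Reg3b, Reg3d and Reg3g), beside 17.8% of 15839 genes, and 1 was higher (Reg2), beside 22.9%. Reg3b, Reg3d and Reg3g were listed at 0 in the library labelled Glut2L and Reg2 in the one labelled Glut2H, so these 4 passed the filter through the other library alone and had to differ. Nothing is read from this count beyond Reg1. In control mice 2 of 5 stood lower there by 2-fold or more (Reg2 and Reg3d), beside 18.5% of 16234 genes, and 1 was higher (Reg3g, listed at 0 in the library labelled Glut2H and so set by the filter), beside 19.7%. With intervals that do not overlap, 2 were lower after STZ (Reg1 and Reg3b, with Reg3b at 0) and 0 higher, beside 4.15% and 0.972% of genes, and 0 were lower and 0 higher in control mice, beside 4.19% and 0.511%. The control difference of Reg2 was -1.01 and that of Reg3d -1.35, with overlapping intervals in both. Of all genes that differed 2-fold between gates, 56.4% after STZ and 51.6% in control mice were higher in the library labelled Glut2L. These shares were 85.1% and 78.0% with libraries rescaled to an equal sum, which moved the median of all genes to 1.19 and 0.85, and 43.1% and 43.0% with that median at 0. The comparisons share libraries: Glut2L STZ, the low library of Reg1, enters both the STZ comparison of its gate and the gate comparison after STZ.

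**Figure D3:**
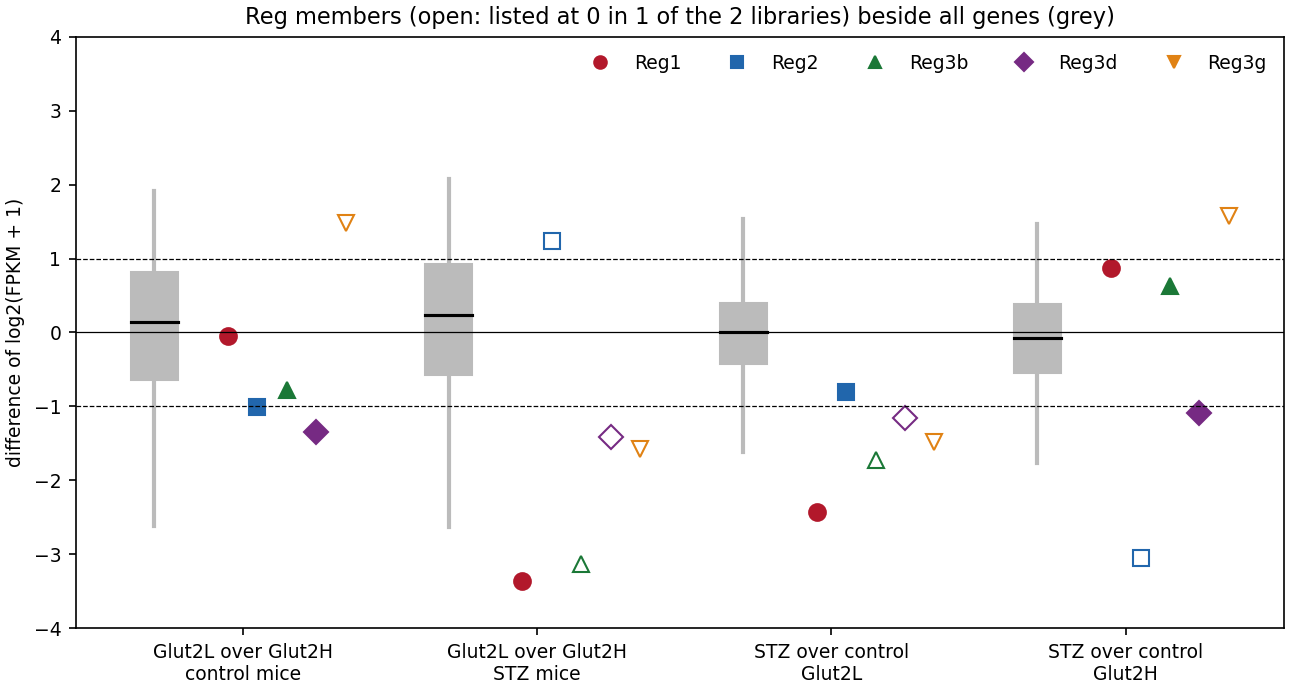
Difference of log2(FPKM + 1) of the 5 Reg genes with at least 1 FPKM, in 4 comparisons named on the horizontal axis. Grey boxes and lines give the middle 50% and 90% of all genes, dashed lines mark 2-fold, and open symbols are genes listed at 0 in 1 of the 2 libraries. Reg1 was at -2.43 in the STZ comparison of the Glut2L libraries and -3.36 between gates after STZ, and at -0.05 between gates in control mice.

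In the comparisons that hold the Glut2L STZ library, Reg1 and most markers of acinar cells were lower together. In the libraries labelled Glut2L, 23 of 25 measured acinar genes stood lower by 2-fold or more after STZ (median -2.70), beside 11.1% of all genes, and Reg1, at -2.43, was lower than 9 of them and higher than 16. Cpa1, a carboxypeptidase, was at 17.0 and 168 FPKM in the STZ and control libraries, and the trypsinogen Prss2 at 63.1 and 417. Ctrb1, a chymotrypsinogen, was at 158 and 801 FPKM, and Pnlip, the pancreatic lipase, at 22.7 and 329. The trypsin inhibitor gene Spink3 did not share this, at 25.6 FPKM after STZ and 30.0 in control mice (-0.22 on the log2 scale). Of the transcription factor genes on the list, Bhlha15 did not share it either, at 7.56 FPKM after STZ and 6.94 in control mice. Nothing can be read from the others. Ptf1a, a subunit of PTF1, was listed at 0 in both, and Rbpjl was at 0 and 0.145 FPKM. Prss1 and Amy2a5 were listed at 0 in all 4 libraries. Between gates after STZ 25 of 26 acinar genes were lower by 2-fold or more in the library labelled Glut2L (median -3.41), beside 17.8% of all genes, with Reg1 at -3.36. Between gates in control mice 3 of 26 were lower and 0 higher (median -0.51), beside 18.5% and 19.7% of all genes, with Reg1 at -0.05.

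In the libraries labelled Glut2H the acinar median was 0.01 after STZ, with 2 of 27 genes at least 2-fold higher and 2 lower, beside 9.62% and 13.8% of all genes. Reg1, at 0.88, was above 24 of the 27. Above it were 3 genes, Try5 (148 FPKM after STZ and 65.1 in control mice), Ptf1a (2.45 and 0.198) and the trypsin inhibitor gene Spink3 (61.9 and 32.9). Prss2 was at 804 FPKM after STZ and 469 in control mice, Cpa1 at 265 and 283, Ctrb1 at 1018 and 1083, and Pnlip at 446 and 443. Set against the summed FPKM of the 30 acinar genes, a ratio that no scaling of a library can move, Reg1 stood at 3.60% and 2.54% in the STZ and control libraries labelled Glut2L, and at 3.51% and 2.07% in those labelled Glut2H. On this ratio both STZ libraries were above both control libraries, and the difference of Reg1 between gates after STZ was 0.038 on the log2 scale in place of -3.36. Rescaling to equal acinar sums moved the median of all genes to 3.35 there, to 2.80 after STZ in the libraries labelled Glut2L, to -0.17 in those labelled Glut2H and to 0.43 between gates in control mice. By it 94.3%, 94.7%, 36.2% and 65.4% of the 2-fold differences were higher, in that order of comparisons.

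The 5 genes of 8770 whose centred log2 profile over the 4 libraries lay nearest to that of Reg1 were Try5, Prss2, Sft2d1, Pnliprp1 and Amy2b. Their root mean squared difference from Reg1 ran from 0.13 to 0.25, against a median of 0.47 over the 24 acinar genes searched and 1.42 over all genes searched. Of the 5, 4 are on the acinar list. Sft2d1 was at 0.851 and 7.23 FPKM in the STZ and control libraries labelled Glut2L, and at 15.3 and 6.39 FPKM in those labelled Glut2H. With 4 libraries in each profile, such likeness is a description of these samples.

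**Figure D4:**
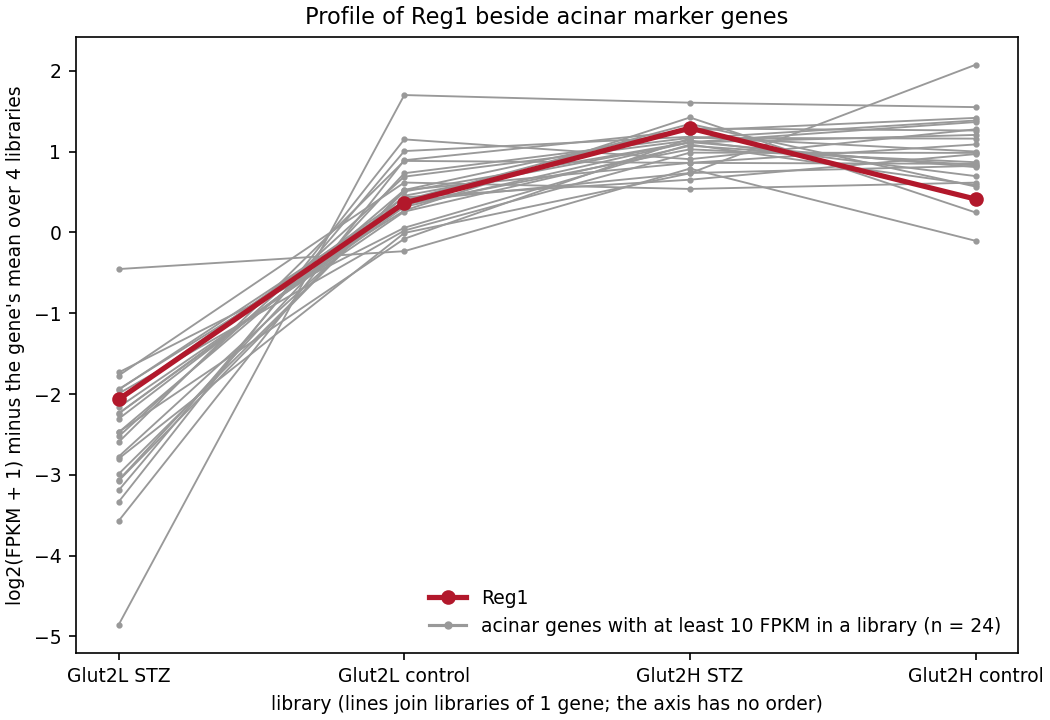
log2(FPKM + 1) of Reg1 (red) and of 24 acinar marker genes with at least 10 FPKM in a library (grey), each minus its mean over the 4 libraries, which are placed along the horizontal axis. Reg1 lay within the band of acinar genes in every library, low in Glut2L STZ as most of them were.

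Markers of other cell types were summed in the same way. Leukocyte markers summed to 134 and 98.8 FPKM in the STZ and control libraries labelled Glut2L and to 3090 and 2822 FPKM in those labelled Glut2H, and in control mice 10 of 10 measured were lower by 2-fold or more in the one labelled Glut2L, where Reg1 was level, beside 18.5% of all genes. Endothelial markers summed to 14.7 and 33.8 FPKM against 244 and 265, and stromal markers to 20.4 and 44.2 FPKM against 687 and 796, in the same order of libraries. In the libraries labelled Glut2L, where Reg1 was lower after STZ, 3 of 6 measured endothelial genes and 1 of 7 stromal genes were lower by 2-fold or more, beside 11.1% of all genes. Duct markers summed to 938 and 1129 FPKM in the STZ and control libraries labelled Glut2L and to 499.6 and 561 FPKM in those labelled Glut2H. Krt8 (310 and 450 FPKM) and Krt18 (357 and 395) were the largest of them in the libraries labelled Glut2L. Between gates 6 of 11 measured in control mice were at least 2-fold higher there, beside 19.7% of all genes, and 7 of 12 after STZ, beside 22.9%. In each pair 2 were lower, Spp1 and Car2, beside 18.5% and 17.8%. In control mice 12 of 12 beta cell markers were higher by 2-fold or more in the library labelled Glut2L, beside 19.7% of all genes, and 10 of 12 after STZ, beside 22.9%. Between STZ and control 0 of 12 differed 2-fold in either gate. Of all genes 10.2% were higher and 11.1% lower in the libraries labelled Glut2L, and 9.62% and 13.8% in those labelled Glut2H. Alpha cell markers summed to 9975 and 4222 FPKM against 4391 and 2328, and delta and PP cell markers to 10509 and 9550 FPKM against 5613 and 5612, in that order too.

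Extl3, the Reg receptor gene and an exostosin of heparan sulfate synthesis, was at 6.17 and 6.21 FPKM in the STZ and control libraries labelled Glut2L, and at 9.95 and 9.82 FPKM in those labelled Glut2H. It differed by less than 2-fold in all 4 comparisons. Of the 5 exostosin genes, 0 differed 2-fold between STZ and control in the libraries labelled Glut2L, where 10.2% of all genes were higher and 11.1% lower. In those labelled Glut2H 2 were higher after STZ, Extl1 (9.26 and 2.51 FPKM) and Extl2 (27.1 and 6.12), where 9.62% of all genes were higher. The difference between these counts was not tested. Ext1 was lower in the library labelled Glut2L, at 7.34 FPKM against 24.1 after STZ and 7.91 against 21.9 in control mice. Ext2 was at 16.8 FPKM in the Glut2L STZ library against 7.40 in the Glut2H STZ library.

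Of the cytokine ligands of this pathway, Il6 and Il11 were above 1 FPKM in all 4 libraries and at least 2-fold lower in those labelled Glut2L. Of the 9 ligand genes, 7 of 8 measured in control mice and 5 of 6 measured after STZ were at least 2-fold lower there, beside 18.5% and 17.8% of all genes. Osm, Clcf1, Il27 and Il10 in control mice, and Lif and Osm after STZ, passed the filter through the library labelled Glut2H alone. The counts are therefore partly set by the filter. The sixth after STZ, Il27, was higher there, at 1.61 FPKM against 0 in the library labelled Glut2H. In control mice it was at 0 against 1.06 FPKM. Il6 was at 7.58 and 2.59 FPKM in the STZ and control libraries labelled Glut2L, and at 22.5 and 97.9 FPKM in those labelled Glut2H. After STZ it was higher in the libraries labelled Glut2L (1.26 on the log2 scale) and lower in those labelled Glut2H (-2.07). Il11 was at 3.50 and 1.90 FPKM against 35.4 and 27.9, and Clcf1 at 2.22 and 0.994 against 12.7 and 15.8, in that order of libraries. Lif, at 0.546 and 2.70 FPKM against 5.74 and 7.98, was lower after STZ in the libraries labelled Glut2L, and Osm stood at 0.464 and 0 against 2.70 and 8.01. Il22 was listed at 0 in all 4 libraries. The lower ligand genes stood beside the leukocyte and stromal sums given above, whose part in them was not tested.

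Among receptors, the shared subunit gp130, encoded by Il6st, was at 97.8 and 100.3 FPKM in the STZ and control libraries labelled Glut2L, and at 173 and 52.1 FPKM in those labelled Glut2H. It was higher after STZ by 1.71 on the log2 scale in the libraries labelled Glut2H, and at -0.04 in those labelled Glut2L. Il6ra, the IL-6 binding chain, was at 1.94 and 2.17 FPKM against 3.08 and 3.38. Il22ra1, the IL-22 binding chain, was at most 0.271 FPKM, in the Glut2H control library, and was listed at 0 in both STZ libraries. Its partner Il10rb was at 6.66 and 4.31 FPKM in the STZ and control libraries labelled Glut2L against 23.9 and 18.2 in those labelled Glut2H. Osmr (0.278 and 0.782 against 22.5 and 24.98 FPKM), Il10ra (0.775 and 0.165 against 8.58 and 9.65) and Il11ra1 (0.545 and 0.478 against 5.83 and 3.31) were likewise lower by 2-fold or more in the libraries labelled Glut2L. Of the 7 measured receptor genes 4 were lower there in each pair and 0 higher, beside 17.8% of all genes lower after STZ and 18.5% in control mice. The shares of all genes higher were 22.9% and 19.7%. Osmr, Il10ra and Il11ra1 were below 1 FPKM in both libraries labelled Glut2L and passed the filter through those labelled Glut2H alone. The count is therefore partly set by the filter. Every interval of Il11ra1 began at 0.

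Stat3 and its inhibitor Socs3 were lowest in the Glut2H STZ library, where Reg1 was highest. They were highest in the Glut2L control library, and not in the Glut2L STZ library, where Reg1 was lowest. Stat3 was at 122 and 197 FPKM in the STZ and control libraries labelled Glut2L, and at 63.2 and 144 FPKM in those labelled Glut2H. Socs3, itself switched on by STAT3, was at 100.4 and 208 FPKM against 8.23 and 47.3 in the same order, at least 2-fold lower after STZ in both gates. Of the 9 transducer and inhibitor genes, 1 was at least 2-fold lower after STZ in the libraries labelled Glut2L and 4 in those labelled Glut2H (Stat3, Socs3, Socs1 and Cish), with 0 higher in either. The shares lower over all genes were 11.1% and 13.8%, and those higher 10.2% and 9.62%. The count lower in the Glut2L libraries was thus that of all genes, and the difference between gates was not tested. Socs1 was at 5.30 and 15.9 FPKM, and Cish at 5.93 and 14.8 FPKM, in the STZ and control libraries labelled Glut2H.

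**Figure D5:**
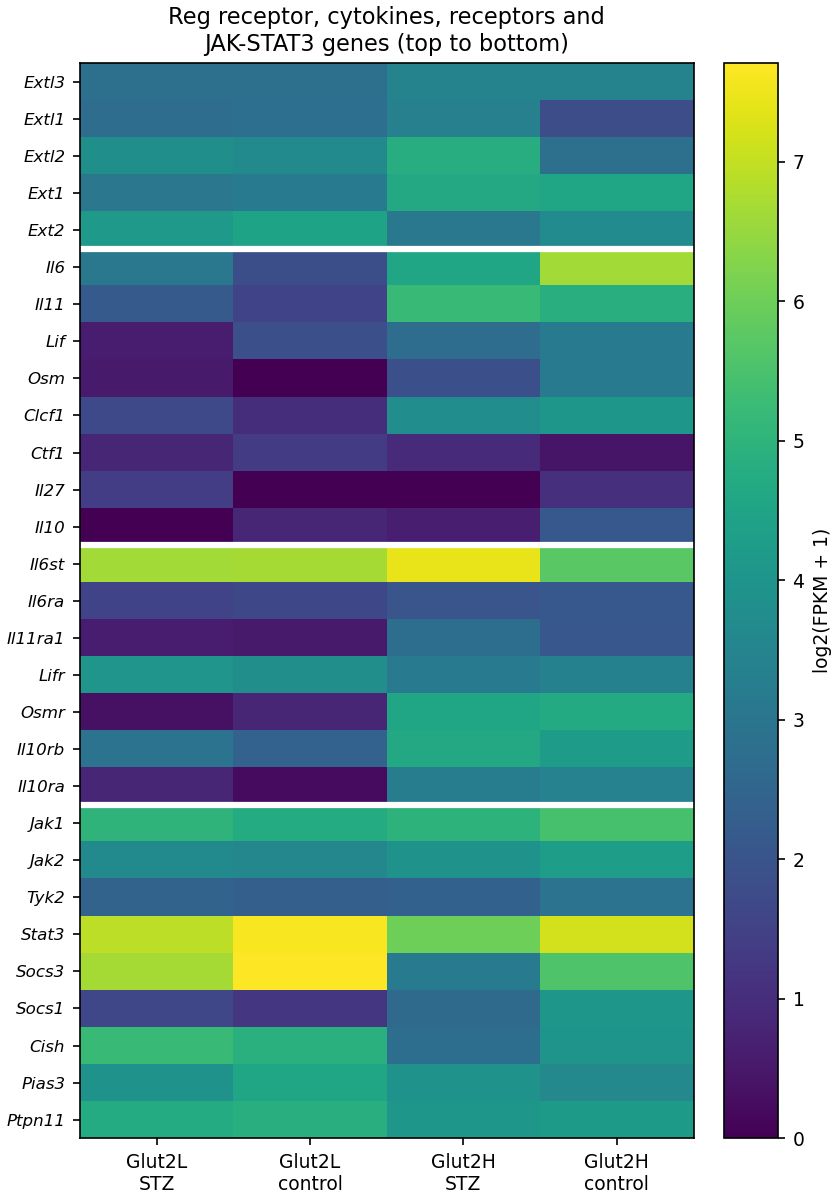
log2(FPKM + 1) as colour for 29 genes with at least 1 FPKM in a library, in blocks of exostosins with Extl3, cytokine ligands, cytokine receptors and JAK-STAT3 genes from top to bottom, over the 4 libraries from left to right. Socs3 was at 8.23 FPKM in the Glut2H STZ library and at 208 FPKM in the Glut2L control library.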

How the data were processed

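Per the submitters' processing notes, the authors handled reads with TopHat2, SAMtools and Cuffdiff on GRCm38 (mm10); the sources used here do not give versions, annotation or the library normalization. Per the labels' protocols, total RNA libraries were stranded and depleted of ribosomal RNA. The deposited values are FPKM with an interval of unstated level, 1 value per gene and library, per the file headers. Table and single-sample files held the same FPKM (0 of 39170 differed in each library), and Reg values lay within their own intervals. Deposited starts count from 0 and are printed from 1. Depth could not be recovered: among genes under 0.5 FPKM in a pair of libraries, at most 2.77% of ratios fell into 1 bin of 0.05 (log2).

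Differences are of log2(FPKM + 1), which understates low genes, over genes with status OK and at least 1 FPKM in either library; a call is a 2-fold difference. Folds in the text are ratios of FPKM, and none is given against 0. With 1 library per group there is no test. Members and lists were chosen with earlier results of these data known. The text names all Reg members, fixed receptor and STAT3 genes, list members past 2-fold with at least 5 FPKM, set acinar and beta cell genes, and the 5 genes nearest to a member with at least 10 FPKM. Spink3, Prss1, Amy2a5, Hp, Saa1, Saa2, Saa3 and the paired promoter motif were chosen after their values or letters were seen. So were Rbpjl, Krt8, Krt18, Spp1, Car2, Il10 and Il27. Scripts (Python 3.11.15, pandas 2.3.3, Biopython 1.88) were tested on simulated data. Alternatives were other pseudocounts (0.1, 5), filters (none, 5 FPKM), 4 scalings, non-overlapping intervals and the single-sample files.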

Additional observations from a re-analysis of the deposited data

Results flagged for a closer look

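Some Reg genes had differences of opposite sign in the 2 gates or in the 2 treatments. After STZ, Reg1 differed from control by -2.43 (log2) in the libraries labelled Glut2L and by 0.88 in those labelled Glut2H, Reg3b by -1.72 and 0.62, and Reg3g by -1.49 and 1.57. Between the libraries labelled Glut2L and Glut2H, Reg2 differed by 1.23 after STZ and by -1.01 in control mice, and Reg3g by -1.57 after STZ and 1.49 in control mice. Each direction rests on 1 library per group, and none of these differences was tested. Relative to the acinar sum the STZ differences of Reg1 were 0.50 in the libraries labelled Glut2L and 0.76 in those labelled Glut2H, the same direction. In these pairs Reg2 was listed at 0 in the Glut2H STZ library, Reg3b in the Glut2L STZ library, and Reg3g in the Glut2L STZ and Glut2H control libraries. The filter set the direction of each such gene in the pairs that hold those libraries, and nothing is read from it. The intervals overlapped for the 0.88 of Reg1, the 0.62 of Reg3b and the -1.01 of Reg2, and the first 2 of these were below 2-fold.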

How the results depend on the processing

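No paired analysis was possible because each group holds 1 library, and no replicate could be left out. Setting the median of all genes to 0, rescaling to an equal sum (with or without the 20 highest rows) and the single-sample files kept the direction of Reg1 in the comparisons where it differed 2-fold. Counts of members moved with the low ones. With a pseudocount of 5, the counts lower were 2 and 0 between gates after STZ and in control mice, 1 after STZ in the Glut2L libraries and 1 in the Glut2H libraries, and each count higher of 1 became 0. A filter of 5 FPKM left 2, 1, 1 and 1 lower in that order and 0 higher, and non-overlapping intervals left 2, 0, 1 and 1 lower and 0 higher; a gene listed at 0 has an interval of no width. Equal sums over all rows left 0 lower between gates in control mice. With the median of all genes at 0, the count higher between gates after STZ was 0. Relative to the acinar sum, 1 member was lower between gates in control mice, 1 (Reg2) was higher after STZ in the Glut2L libraries, and the sign turned for Reg1 between gates after STZ (0.038), for Reg1 after STZ in the Glut2L libraries (0.50) and for Reg2 there (1.499). The difference of STZ effects between gates was -0.26 for Reg1 relative to the acinar sum; with a pseudocount of 5 it was 0.94 for Reg2, -0.94 for Reg3b and -0.92 for Reg3g, and with 0.1 it was -2.31 for Reg3d. The cause of these shifts was not tested.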

Other observations

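Genes of the acute phase that STAT3 signals can raise were measured beside the Reg family. In control mice 2 of 8 measured were higher by 2-fold or more in the library labelled Glut2L (Cebpd and Lcn2) and 2 lower (Hp and Timp1), counts near the 19.7% and 18.5% of all genes. Between gates after STZ 1 of 7 was higher and 2 lower, beside 22.9% and 17.8%. After STZ 0 of 7 were higher and 3 lower in the libraries labelled Glut2L, beside 10.2% and 11.1%. In those labelled Glut2H 2 of 10 were higher and 3 lower, beside 9.62% and 13.8%. Lcn2 passed the filter through the control library alone in both STZ comparisons. None of this was tested. Cebpd was at 81.4 and 136 FPKM in the STZ and control libraries labelled Glut2L, and at 25.4 and 28.9 FPKM in those labelled Glut2H. Lcn2, an iron-binding defence protein, was at 13.2 FPKM in the Glut2L control and 1.88 FPKM in the Glut2H control library and was listed at 0 in both STZ libraries. Bcl3 was at 17.8 and 37.2 FPKM in the STZ and control libraries labelled Glut2L and at 20.7 and 28.7 FPKM in those labelled Glut2H. Timp1, an inhibitor of matrix proteases that stromal cells also make, was at 4.89 and 6.61 FPKM against 84.5 and 108 in the same order. The serum amyloid genes Saa1, Saa2 and Saa3 reached at most 0.571 FPKM.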
